A study of Mus musculus with 12 samples.

Results

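The basolateral bile salt and organic anion transporters are 9 genes whose products carry bile salts, hormone conjugates, drugs and other organic anions across the blood-facing (sinusoidal) membrane of hepatocytes. They were taken by name from a list of sinusoidal transporter genes: Slc10a1, Slco1b2, Slco1a4, Slco2b1, Slc22a7, Abcc3, Abcc4, Abcc6 and Slc51b. All 9 were measured, among 18193 genes on the array. A gene was read from its probe set (a group of short probes for 1 transcript) with the highest mean over the arrays, and the other probe sets of a gene were set beside it. The 9 genes had 16 probe sets in all.

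RNA came from livers of mice aged 3 months on the C57Bl/6 strain, on 12 Affymetrix mouse expression arrays in 3 groups of 4. The groups were Atp7b-/- mice given supplemental zinc, Atp7b-/- mice given no agent, and wild type mice given no agent. Atp7b is the ATPase that moves copper out of hepatocytes into bile, and its loss is the cause of Wilson disease in humans. The labels do not state the kind of Atp7b mutation, the zinc dose or its duration, or whether each array is 1 animal, so p-values measure the spread between these arrays, which may in part be technical. Levels are log2 intensities as the authors deposited them, so a difference of 1 is a doubling of signal, and levels of different genes cannot be set against each other. Errors after ± are SDs over 4 arrays.

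Bile salts returning in portal blood are taken up from the sinusoid by Slc10a1, the sodium-coupled cotransporter known as NTCP, and by sodium-independent carriers of the Slco family, known as OATPs. The exporters Abcc3 and Abcc4 and the heteromer of Slc51a with Slc51b lie in the same membrane and return bile salts and conjugates to blood. In cholestatic liver uptake carriers are typically lowered and basolateral exporters raised, a pattern known from many models. Nuclear receptors, among them FXR, SHP, PXR and CAR, and liver factors such as HNF1 and HNF4 take part in the control of these genes.

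RefSeq promoter windows on build GRCm38.p6, from 250 bases before to 50 bases after a start site, were found for 6 of the 9 genes, 10 windows in all. The windows of the 3 bile salt uptake carriers that fell in Atp7b-/- livers are shown 5′ to 3′, to set the letters near their start sites side by side, with both start sites of Slc10a1. Capitals mark matches on either strand to AGGTCA (a hexamer bound by nuclear receptors), GTTAAT (a core of HNF1 sites), TATAAA (the TATA box) and TTCNNNGAA (a STAT site), none of which overlapped another.
Slc10a1, first start, chr12:80968656-80968955, minus strand: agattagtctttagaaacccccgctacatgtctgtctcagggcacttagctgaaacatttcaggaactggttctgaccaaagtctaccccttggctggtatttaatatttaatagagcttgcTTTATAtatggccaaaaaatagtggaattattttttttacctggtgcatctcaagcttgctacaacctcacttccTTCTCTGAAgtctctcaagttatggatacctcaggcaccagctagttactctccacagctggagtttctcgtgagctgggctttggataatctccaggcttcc
Slc10a1, second start, chr12:80968030-80968329, minus strand: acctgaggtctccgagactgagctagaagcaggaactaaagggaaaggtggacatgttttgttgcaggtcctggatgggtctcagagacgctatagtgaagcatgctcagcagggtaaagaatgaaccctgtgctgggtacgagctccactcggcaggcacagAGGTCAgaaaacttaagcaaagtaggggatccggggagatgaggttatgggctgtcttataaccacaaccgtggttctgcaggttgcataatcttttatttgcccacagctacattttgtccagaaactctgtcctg
Slco1b2, chr6:141629268-141629567, plus strand: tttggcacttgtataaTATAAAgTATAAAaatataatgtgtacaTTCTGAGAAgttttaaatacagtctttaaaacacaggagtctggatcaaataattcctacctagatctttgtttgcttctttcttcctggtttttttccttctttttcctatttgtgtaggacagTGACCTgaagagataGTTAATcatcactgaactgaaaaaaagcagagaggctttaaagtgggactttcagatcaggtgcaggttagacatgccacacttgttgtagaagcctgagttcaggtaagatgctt
Slco1a4, chr6:141856171-141856470, minus strand: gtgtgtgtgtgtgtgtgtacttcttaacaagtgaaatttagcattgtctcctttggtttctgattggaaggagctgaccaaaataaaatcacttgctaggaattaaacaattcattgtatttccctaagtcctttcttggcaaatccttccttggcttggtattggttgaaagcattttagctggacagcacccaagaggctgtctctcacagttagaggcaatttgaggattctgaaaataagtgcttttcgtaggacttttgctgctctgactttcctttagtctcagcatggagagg

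The first Slc10a1 window held a reverse TATA box at position -128 and a STAT match at -53, counted from the start site. The second window held AGGTCA at -87. The Slco1b2 window held 2 TATA boxes at -234 and -227, a STAT match at -206, a reverse AGGTCA at -81 and GTTAAT at -66. None of these letters occurred in the Slco1a4 window. Among all 32851 promoter windows, 16.3% held AGGTCA, 7.10% GTTAAT, 13.6% TATAAA and 8.30% TTCNNNGAA. AGGTCA next to its reverse complement with 1 base between (the FXR inverted repeat) and AGGTCA repeated with 1 base between (the HNF4 direct repeat), searched on both strands, were in none of the 10 windows and in 0.00913% and 0.0396% of all. A match is a string of letters, not a shown binding site.

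Of the 12 arrays, 3 stood apart. Untreated Atp7b-/- replicate 1 correlated least with its group (median r = 0.991 over genes, against 0.996 for the other 3), and its mean over 17 cell cycle genes was 8.18, against 7.28 to 7.61 on the other untreated arrays. Zinc-treated replicates 2 and 3 carried pancreatic acinar transcripts, with means of 9.42 and 6.82 over 11 such genes, against 5.37 to 5.68 on the 10 other arrays. Atp7b itself averaged 6.83 ± 0.18 in zinc-treated mutants, 7.11 ± 0.15 in untreated mutants and 8.60 ± 0.07 in wild type, and whether its probe set reads the mutated stretch of the gene is not known. Mt1, a metallothionein induced by metals, averaged 14.4 in zinc-treated mutants, 14.7 in untreated mutants and 9.03 ± 1.66 in wild type. The mean of 13 hepatocyte markers was 13.4 to 13.7 in zinc-treated, 13.5 to 13.6 in untreated Atp7b-/- and 13.4 to 13.6 in wild type livers, so the tissue label held in every group.

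**Figure D1:**
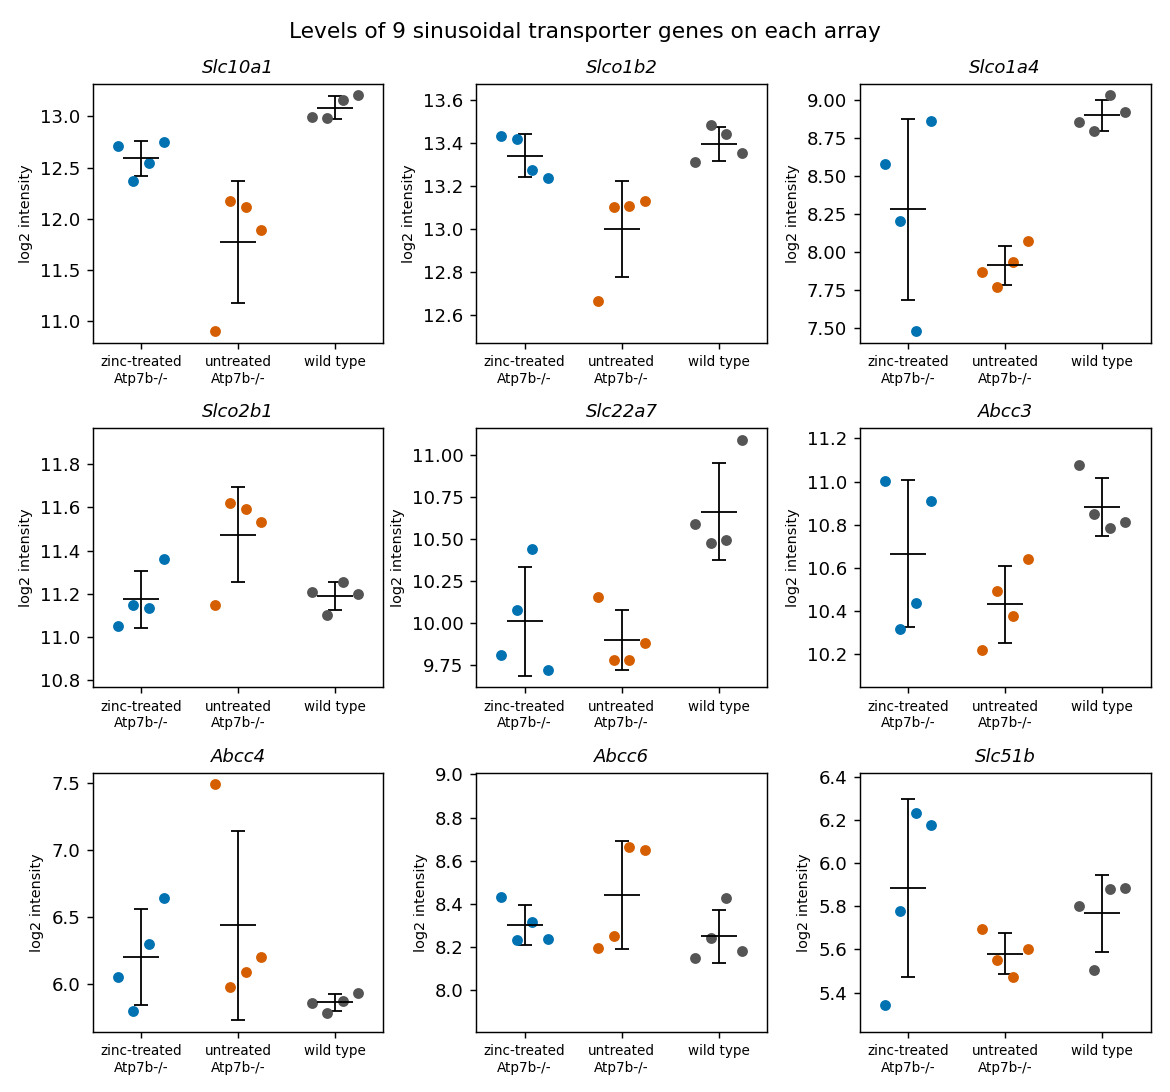
Log2 intensity (vertical axis) of the 9 transporter genes on each of 12 arrays, 1 panel per gene, with zinc-treated Atp7b-/-, untreated Atp7b-/- and wild type from left to right. Dots are arrays in replicate order, and bars are the mean and SD of 4 arrays. The untreated dots of Slc10a1, Slco1b2, Slco1a4, Slc22a7 and Abcc3 all lie below the wild type dots, and the axes differ between panels.

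Loss of Atp7b was compared with wild type to ask what it changed at the sinusoidal membrane. Of the 9 transporters, 5 fell and 0 rose. Slc10a1 was 2.49-fold lower, Slco1a4 1.98-fold, Slc22a7 1.70-fold, Abcc3 1.37-fold and Slco1b2 1.31-fold lower in Atp7b-/- livers. These are 4 uptake or exchange carriers and 1 exporter. A gene was called at a Benjamini-Hochberg adjusted p under 0.05 in limma, fitted over all genes and arrays. Over all 18193 genes 10.3% fell and 14.3% rose by this test, 24.6% in either direction. The median difference of the 9 genes was -0.39, beside -0.05 over all genes. At an unadjusted p under 0.05, 1 of the 9 was higher. The same number fell after quantile normalization and after centring of each array on its median, although of all called genes 58.2% were higher as deposited, 44.8% after quantile normalization and 36.2% after centring.

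Slc10a1 lies on chromosome 12 (80953185 to 80968705, build GRCm38). Its log2 level was 10.90, 12.18, 12.12 and 11.89 in untreated Atp7b-/- livers, against 13.00, 12.98, 13.16 and 13.21 in wild type. Every mutant array was below every wild type array, and mutant replicate 1 was the lowest. The difference was -1.31 (95% interval -1.79 to -0.84; limma adjusted p = 0.000719). Without replicate 1 it was -1.03 (adjusted p = 2.91e-05). The other Slc10a1 probe set gave -1.38 (adjusted p = 0.000329 over all probe sets tested). The call held in all 24 alternative settings tried.

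Both Slco1 members lie in the Slco cluster of chromosome 6. Slco1b2 (141629452 to 141686646) encodes the main hepatic OATP of the mouse, which takes up unconjugated bile acids and bilirubin among other anions. Its level was 12.67, 13.10, 13.11 and 13.13 in untreated Atp7b-/- livers, against 13.31, 13.48, 13.44 and 13.35 in wild type. The groups did not overlap, and 3 of the mutant arrays lay close together with replicate 1 below them. The difference was -0.39 (95% interval -0.62 to -0.17; limma adjusted p = 0.0138), and -0.28 without replicate 1 (adjusted p = 0.0218).

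Slco1b2 had 5 probe sets, and all 5 fell in Atp7b-/- livers when each was tested on its own. The brightest, which stood for the gene, gave the smallest difference of the 5. The other 4 gave -0.63, -0.66, -0.74 and -1.04 (adjusted p = 0.00193, 0.0346, 0.00344 and 0.00203). Those with -0.66 and -0.74 were dim, at means of 5.63 and 4.84 in untreated Atp7b-/- livers and 6.29 and 5.58 in wild type. With the mean of all 5 the difference was -0.69 (limma adjusted p = 0.00253). On the probe set with the largest difference the levels were 9.13, 10.23, 9.85 and 9.86 in untreated Atp7b-/- livers, against 10.53, 11.14, 10.84 and 10.73 in wild type.

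**Figure D2:**
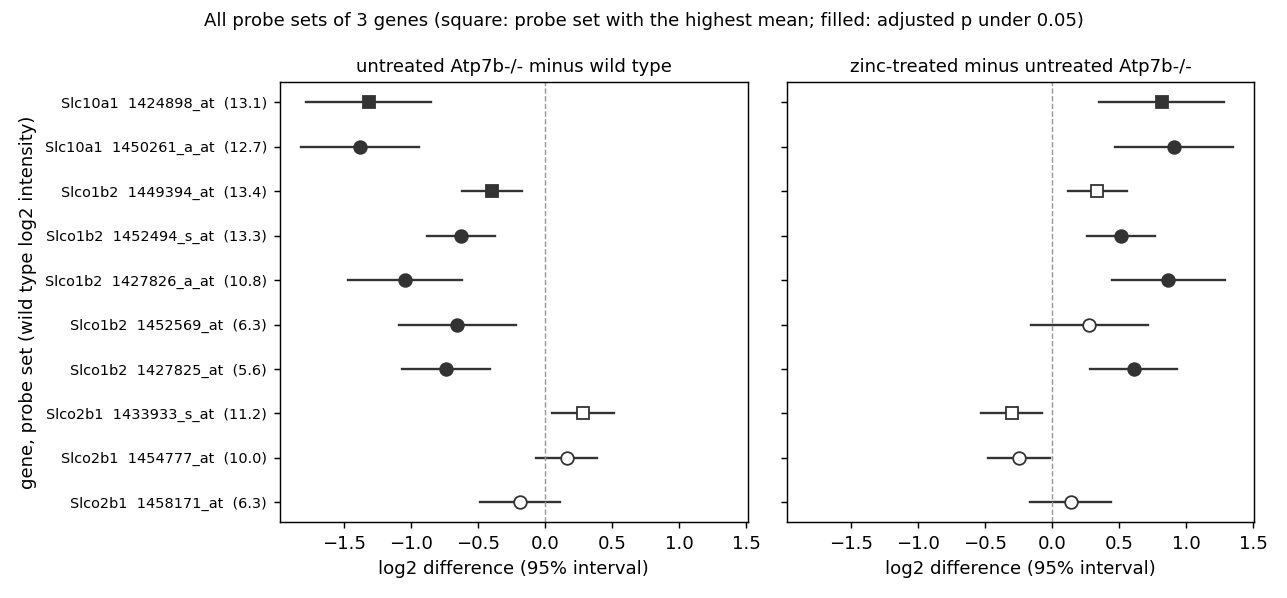
Log2 difference with its 95% interval (horizontal axis) for each probe set of Slc10a1, Slco1b2 and Slco2b1, as untreated Atp7b-/- minus wild type (left) and zinc-treated minus untreated Atp7b-/- (right). Squares are the probe sets with the highest mean, filled symbols passed an adjusted p of 0.05, and the wild type level stands in parentheses. All 5 Slco1b2 probe sets lie left of 0 in the left panel, from -0.39 to -1.04, whereas the 3 of Slco2b1 lie on both sides of 0.

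Slco1a4 (141805438 to 141856284) encodes an OATP for bile salts and steroid conjugates and is a known target of PXR in mouse. Its level was 7.87, 7.77, 7.94 and 8.08 in untreated Atp7b-/- livers, against 8.85, 8.79, 9.03 and 8.92 in wild type. The 4 mutant arrays were close together, all of them below wild type, and replicate 1 did not stand apart. The difference was -0.99 (95% interval -1.45 to -0.52; limma adjusted p = 0.00473), and it was called in all 24 settings.

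Slco2b1 (chromosome 7, 99657804 to 99711340) encodes an OATP for steroid sulfates that is found in many tissues. Its level was 11.15, 11.62, 11.59 and 11.53 in untreated Atp7b-/- livers, against 11.21, 11.10, 11.26 and 11.20 in wild type. Mutant replicates 2 to 4 were above every wild type array, and replicate 1 lay within the wild type range. The difference of 0.28 did not pass (95% interval 0.05 to 0.51; limma adjusted p = 0.0668). Without replicate 1 it was 0.39 and passed (adjusted p = 0.00564), whereas the mean of its 3 probe sets differed by 0.085 (adjusted p = 0.490). The other probe sets differed by 0.16 and -0.19, and neither passed. The one with -0.19 was dim, at 6.07 in untreated Atp7b-/- livers and 6.26 in wild type.

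Slc22a7 (chromosome 17, 46432185 to 46438477) encodes OAT2, an organic anion transporter whose substrates include nucleotides and cyclic GMP. Its level was 10.16, 9.79, 9.78 and 9.88 in untreated Atp7b-/- livers, against 10.59, 10.48, 10.50 and 11.09 in wild type. The groups did not overlap. The difference was -0.76 (95% interval -1.12 to -0.40; limma adjusted p = 0.00495). For this gene mutant replicate 1 was the highest of its group, and without it the difference was -0.85 (adjusted p = 0.00410).

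Among the exporters, Abcc3 (chromosome 11, 94343295 to 94393017) encodes MRP3, which passes glucuronides such as bilirubin glucuronide to blood. Its level was 10.22, 10.49, 10.38 and 10.64 in untreated Atp7b-/- livers, against 11.08, 10.85, 10.79 and 10.81 in wild type. The groups did not overlap, but the nearest arrays were 10.64 and 10.79. The difference was -0.45 (95% interval -0.77 to -0.13; limma adjusted p = 0.0410). The call was lost when any 1 wild type array or untreated replicate 1, 2 or 3 was left out, with differences of -0.38 to -0.48 and adjusted p = 0.0543 to 0.112, and with array weights (-0.38; adjusted p = 0.0833).

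Abcc4 (chromosome 14, 118482692 to 118707856) encodes MRP4, an exporter of bile salts with glutathione, cyclic nucleotides and steroid sulfates. Its level was 7.49, 5.98, 6.09 and 6.20 in untreated Atp7b-/- livers, against 5.86, 5.78, 5.87 and 5.93 in wild type. All 4 mutant arrays were above wild type, 3 of them by a narrow margin and replicate 1 by far. The difference of 0.58 did not pass (95% interval -0.01 to 1.16; limma adjusted p = 0.139), and without replicate 1 it was 0.22 (adjusted p = 0.307). The probe set was dim, since the medians of all genes on the arrays were 6.51 to 6.67. A promoter window of Abcc4 (chr14:118706170-118706469) held a reverse match to the antioxidant response core TGACNNNGC at -25 and the metal response core TGCGCNC at -152 and -109, on the strand of the gene. Of all windows 12.4% held the first core and 25.7% the second or its variant TGCACNC, on either strand, so these letters are common. The same window also held reverse matches to the xenobiotic response core GCGTG at -101 and -94, and a STAT match at 3. The other Abcc4 window (chr14:118676882-118677181) held TGACNNNGC at -23. GCGTG was in 32.4% of all windows.

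Abcc6 (chromosome 7, 45974110 to 46030491) encodes MRP6, which releases ATP from hepatocytes and whose loss causes ectopic calcification. Its level was 8.20, 8.25, 8.66 and 8.65 in untreated Atp7b-/- livers, against 8.15, 8.24, 8.43 and 8.18 in wild type. Untreated replicates 3 and 4 were above wild type and the others within it, and the difference of 0.19 did not pass (95% interval -0.06 to 0.44; limma adjusted p = 0.238).

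Slc51b (chromosome 9, 65412753 to 65422773) encodes the small subunit of the OST exporter, a target of FXR. Its level was 5.70, 5.55, 5.47 and 5.60 in untreated Atp7b-/- livers, against 5.80, 5.51, 5.88 and 5.88 in wild type. The groups overlapped, at a level below the median of all genes on every array. The difference of -0.19 did not pass (95% interval -0.54 to 0.17; limma adjusted p = 0.424). Its partner Slc51a differed by -0.17 (95% interval -0.42 to 0.09; adjusted p = 0.316).

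The arrays did not overlap for 6 of the 9 genes, 5 lower and 1 (Abcc4) higher in Atp7b-/- livers. Over all genes the arrays were lower without overlap for 12.1% and higher for 14.3%, 26.4% in all. Untreated replicate 1 was the lowest array of its group for 5 genes (Slc10a1, Slco1b2, Slco2b1, Abcc3 and Abcc6) and the highest for 3 (Abcc4, Slc22a7 and Slc51b). RNA degradation, read as the 3′ minus 5′ signal of the Actb and Gapdh controls, was 0.79 to 0.88 in untreated Atp7b-/- and 0.62 to 0.78 in wild type, so RNA quality and group cannot be told apart. The mean of 12 macrophage markers was 7.36 to 8.25 in untreated Atp7b-/- and 7.75 to 8.63 in wild type. Untreated replicate 1 was at 8.25 and the other untreated arrays at 7.36 to 7.63. Of these 12 markers 7 fell and 0 rose, with a median difference of -0.66. The mean of 11 cholangiocyte markers was 5.72 to 5.82 in untreated Atp7b-/- and 5.35 to 5.46 in wild type. Among these 11 markers 3 rose and 0 fell, with a median difference of 0.09 and the largest, 1.70, for Slc10a2. The part of these shifts in the results was not tested. In a whole liver sample, fewer cells of a type and less RNA per cell cannot be told apart.

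**Figure D3:**
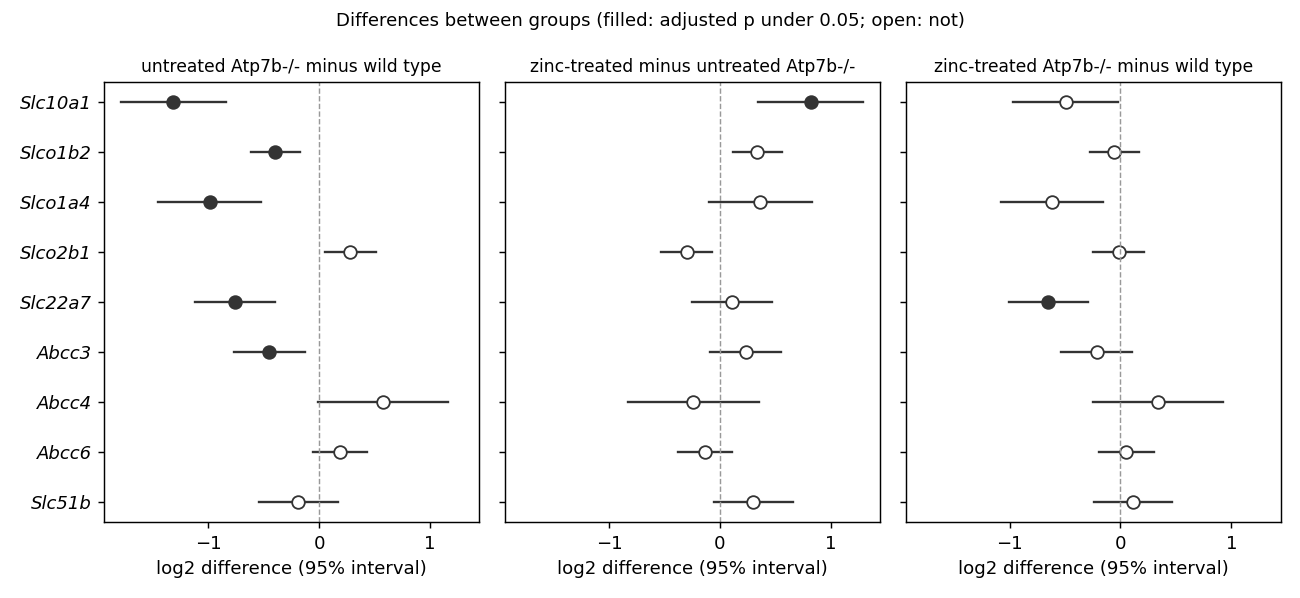
Log2 difference with its 95% interval (horizontal axis) for each transporter (rows) in the 3 comparisons, each as first group minus second. Filled dots passed an adjusted p of 0.05 in limma. In the left panel 5 dots are filled, all left of 0, in the middle panel only Slc10a1 (0.82) and in the right panel only Slc22a7 (-0.65).

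Zinc-treated Atp7b-/- mice were compared with untreated ones to ask which transporters differed with zinc. Slc10a1 was 1.76-fold higher with zinc, and it was the single member of the 9 that passed. None fell (1 was lower at an unadjusted p under 0.05). Over all genes 1.70% rose and 4.84% fell with zinc, 6.54% in either direction. Slc10a1 and Slco1b2, 2 of the 9 genes, were higher with zinc without overlap, and none was lower, beside 5.93% and 9.39% of all genes (15.3% in all). Of the called genes 26.0% were higher as deposited, 44.7% after quantile normalization and 36.3% after centring. The median difference of the 9 genes was 0.23, beside 0.01 over all genes. The 3′ minus 5′ control signal was 0.54 to 0.74 in zinc-treated and 0.79 to 0.88 in untreated Atp7b-/- livers, without overlap, so RNA quality and zinc cannot be told apart. The cell cycle mean was 6.38 to 6.76 in zinc-treated and 7.28 to 8.18 in untreated livers, and its part in the result was not tested. This comparison uses the same untreated arrays as the one against wild type, so the values are given side by side and their opposite signs are not separate evidence.

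Slc10a1 was at 12.71, 12.37, 12.54 and 12.75 in zinc-treated Atp7b-/- livers, against 10.90, 12.18, 12.12 and 11.89 in untreated ones. All zinc-treated arrays were above all untreated arrays. The difference was 0.82 (95% interval 0.35 to 1.29; limma adjusted p = 0.0406). The call was lost in 11 of 24 settings, with adjusted p up to 0.0997: without any 1 zinc-treated array, without untreated replicate 4, without wild type replicate 1, 2 or 3, without both arrays with pancreatic transcripts, with a trended robust variance, and with only the groups compared. Without untreated replicate 1 the difference was smaller, at 0.53, and passed (adjusted p = 0.0151). The other Slc10a1 probe set gave 0.91 (adjusted p = 0.0203).

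Slco1b2 was at 13.43, 13.42, 13.27 and 13.24 in zinc-treated Atp7b-/- livers, against 12.67, 13.10, 13.11 and 13.13 in untreated ones. The groups did not overlap, and the difference of 0.34 did not pass (95% interval 0.12 to 0.56; limma adjusted p = 0.0684). It passed with quantile normalization (0.34; adjusted p = 0.0468), with the mean of its 5 probe sets (0.52; adjusted p = 0.0373), with dim genes left out and with a trended robust variance. Of its 5 probe sets 3 rose when each was tested on its own, by 0.51, 0.61 and 0.87 (adjusted p = 0.0230, 0.0332 and 0.0216). The one with 0.61 was dim, at 5.45 in zinc-treated and 4.84 in untreated livers. Without untreated replicate 1 the difference was 0.23 (adjusted p = 0.122).

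Slco1a4 was at 8.58, 8.21, 7.48 and 8.86 in zinc-treated Atp7b-/- livers, against 7.87, 7.77, 7.94 and 8.08 in untreated ones. Zinc-treated replicate 3 was below every untreated array, and the other 3 were above them. The difference of 0.37 did not pass (95% interval -0.10 to 0.83; limma adjusted p = 0.349). Without zinc-treated replicates 2 and 3, the arrays with pancreatic transcripts, it was 0.80 and passed (adjusted p = 0.00345), and without replicate 3 alone 0.63 (adjusted p = 0.0190).

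Abcc3 was at 11.00, 10.32, 10.44 and 10.91 in zinc-treated Atp7b-/- livers, against 10.22, 10.49, 10.38 and 10.64 in untreated ones. Zinc-treated replicates 1 and 4 were above the untreated arrays and replicates 2 and 3 within them. The difference of 0.23 did not pass (limma adjusted p = 0.390), and without replicates 2 and 3 it was 0.52 (adjusted p = 0.0465). Slc22a7 was at 9.81, 10.08, 10.44 and 9.72 with zinc, against 10.16, 9.79, 9.78 and 9.88 without it. Here the groups overlapped, and the difference of 0.11 did not pass (95% interval -0.25 to 0.47; adjusted p = 0.751).

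The zinc-treated arrays were split for several of the 9 genes in the way that the pancreatic transcripts split them. Replicates 1 and 4 were above replicates 2 and 3 for Slc10a1, Slco1a4 and Abcc3 (means of 12.73 and 12.45, 8.72 and 7.84, and 10.96 and 10.38), and below them for Slc22a7 (9.77 and 10.26). That is 4 of 9 genes without overlap: 3 higher and 1 lower, where 21.1% of all genes were higher and 18.8% lower without overlap between the same arrays (39.9% in all). The count is near the share over all genes. Whether the pancreatic RNA itself moves these values was not tested.

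Slco2b1 was at 11.05, 11.15, 11.13 and 11.36 in zinc-treated Atp7b-/- livers, against 11.15, 11.62, 11.59 and 11.53 in untreated ones. The difference of -0.30 did not pass (95% interval -0.53 to -0.07; limma adjusted p = 0.112), and without untreated replicate 1 it was -0.41 and passed (adjusted p = 0.0150). The mean of its probe sets differed by -0.14 (adjusted p = 0.396). Its other probe sets differed by -0.25 and, on the dim one, by 0.14, and neither passed. Abcc4 was at 6.05, 5.80, 6.30 and 6.64 with zinc, with a difference of -0.24 (adjusted p = 0.665) that was 0.11 without untreated replicate 1. Abcc6 differed by -0.14 (95% interval -0.38 to 0.11; adjusted p = 0.532). Slc51b was at 5.34, 5.78, 6.23 and 6.18 with zinc, a wider spread than without it (SD of 0.41 against 0.09). It differed by 0.30 (adjusted p = 0.307), and by 0.48 without zinc-treated replicate 1 (adjusted p = 0.0497).

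Zinc-treated Atp7b-/- mice were compared with wild type to ask which transporters still differed under zinc. Slc22a7 was 1.57-fold lower with zinc than in wild type, and it alone of the 9 passed. None rose, also at an unadjusted p under 0.05. Over all genes 4.89% rose and 2.73% fell (7.62% in all), and 64.2% of the called genes were higher (52.1% after centring). The zinc-treated levels of 9.81, 10.08, 10.44 and 9.72 stood against 10.59, 10.48, 10.50 and 11.09 in wild type. They did not overlap, although 10.44 and 10.48 nearly met. The difference was -0.65 (95% interval -1.01 to -0.29; limma adjusted p = 0.0303). The call was lost without zinc-treated replicate 1, 2 or 4 and without wild type replicate 1 or 4. It was also lost with only the groups compared and with the replicate numbers fitted as a block. The differences were then -0.51 to -0.67, with adjusted p = 0.0554 to 0.0923. Without both arrays with pancreatic transcripts the difference was -0.90 (adjusted p = 0.0128).

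Slc10a1 in zinc-treated livers, at 12.71, 12.37, 12.54 and 12.75, was below every wild type array. The difference of -0.50 did not pass (95% interval -0.97 to -0.02; limma adjusted p = 0.206), and it passed without untreated replicate 1, which shares the estimate of the spread (adjusted p = 0.00871), and with only the groups compared (adjusted p = 0.0163). Slco1a4 differed by -0.62 (95% interval -1.08 to -0.16; adjusted p = 0.104), by -0.81 without zinc-treated replicate 4 (adjusted p = 0.0300), and by -0.18 without the arrays with pancreatic transcripts (adjusted p = 0.464). Slco1b2 and Slco2b1 differed by -0.05 and -0.02 on the probe sets that stand for them, with 95% intervals of -0.28 to 0.17 and -0.24 to 0.21. The other Slco1b2 probe sets differed by -0.12 to -0.38, with intervals that reached as low as -0.82, and none passed. Abcc3 differed by -0.22 (adjusted p = 0.443), Abcc4 by 0.34 (adjusted p = 0.526), Abcc6 by 0.05 (adjusted p = 0.840) and Slc51b by 0.12 (adjusted p = 0.745). Slc10a1 and Slc22a7, 2 of 9 genes, were lower without overlap and none higher, beside 6.45% and 7.88% of all genes (14.3% in all). The control 3′ minus 5′ differences were 0.54 to 0.74 in zinc-treated livers and 0.62 to 0.78 in wild type. The cholangiocyte mean was 5.58 to 5.76 in zinc-treated livers and 5.35 to 5.46 in wild type. The cell cycle mean was 6.38 to 6.76 and 5.78 to 6.11, and neither mean overlapped. Among the 11 cholangiocyte markers only Slc10a2 passed, with a difference of 2.66, and the median difference of the 11 was -0.02. The part of both means in the Slc22a7 result was not tested.

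Other members of the same families were set beside the 9 genes. Of 9 further Slco genes, 1 fell and 0 rose in Atp7b-/- livers (0 at an unadjusted p under 0.05). Slco1a1, an OATP with male-biased expression, lies in the same cluster (141907281 to 141946962). It varied widely among untreated mutants, at 11.1 ± 0.97, and averaged 12.9 ± 0.10 in wild type and 12.5 ± 0.14 in zinc-treated mutants. It fell by 1.84 (limma adjusted p = 0.00147) and was 1.39 higher with zinc (adjusted p = 0.0265). The neighbours Slco1a5, Slco1a6 and Slco1c1 differed from wild type by -0.12, -0.09 and 0.08, and none passed. Among the cluster genes named here, 3 fell and 3 did not pass.

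Of 8 other Abcc genes (Cftr among them), 2 rose and 1 fell in Atp7b-/- livers. Abcc2, the canalicular MRP2, rose by 0.65 (adjusted p = 0.0132) and Abcc12 by 1.15 (adjusted p = 0.0212), and Abcc8 fell by 0.26 (adjusted p = 0.0398). Abcc12 was at 5.92 in untreated Atp7b-/- and 4.77 in wild type, and Abcc8 at 3.62 and 3.88. The lower quartile of genes was 4.77 to 4.93 on the arrays, so wild type Abcc12 and both levels of Abcc8 were very dim and the sizes of these differences are uncertain. With zinc, against untreated mutants, Abcc2 fell by 0.84 and Abcc12 fell by 1.22 (adjusted p = 0.00985 and 0.0411). Of 5 measured genes among Slc51a and the other Slc10 members, 2 rose and 1 fell. Slc10a2, the apical sodium-dependent bile salt transporter of cholangiocytes and ileum, averaged 9.77 in zinc-treated mutants, 8.82 in untreated mutants and 7.12 in wild type. It rose by 1.70 without zinc (adjusted p = 0.00791) and by 2.66 with it (adjusted p = 0.00104), and the step between the mutants did not pass (0.96; adjusted p = 0.183). The orphan Slc10a7 rose by 0.44 (adjusted p = 0.00926), and Slc10a6, a carrier of steroid sulfates, fell by 0.35 (adjusted p = 0.0151) at a dim level of 5.09 in untreated Atp7b-/- and 5.44 in wild type.

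Of 15 other Slc22 genes, 5 rose and 3 fell in Atp7b-/- livers. Those with the smallest adjusted p were Slc22a18 (1.12; adjusted p = 3.79e-05), Slc22a4, a carrier of ergothioneine (0.95; adjusted p = 0.000651), Slc22a30 (-0.62; adjusted p = 0.00242) and Slc22a29 (2.23; adjusted p = 0.00293). Slc22a29 averaged 6.94 ± 0.84 in untreated Atp7b-/- and 4.72 in wild type. It was very dim in wild type, so the size of its difference is uncertain. With zinc Slc22a18 fell by 0.66 against untreated mutants (adjusted p = 0.00929).

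On the canalicular side, which passes bile salts and lipids into bile, 5 of 10 genes rose and 2 fell in Atp7b-/- livers. The phospholipid floppase Abcb4 rose by 0.53 (adjusted p = 0.000362), Abcb1a by 0.98 (adjusted p = 0.00166) and Abcb1b by 2.89 (adjusted p = 0.00641), and Abcb11, the bile salt export pump, fell by 0.56 (adjusted p = 0.00221). Abcb1a and Abcb1b were dim in wild type, at 5.16 and 5.03, so the sizes of their differences are uncertain. Abcb1b also varied widely among untreated mutants (7.93 ± 1.9). With zinc, against untreated mutants, 1 of the 10 genes rose and 2 fell. Abcb11 was 0.66 higher (adjusted p = 0.00267), Abcb1b fell by 3.30 (adjusted p = 0.00963) and Abcc2 by 0.84 (adjusted p = 0.00985). Abcb11 averaged 12.12 in zinc-treated mutants, 11.45 in untreated mutants and 12.01 in wild type.

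Of 18 genes of bile acid synthesis and conjugation, 6 fell and 2 rose in Atp7b-/- livers, and 5 rose and 0 fell with zinc (1, Cyp7a1, was lower at an unadjusted p under 0.05). Cyp2c70, which makes muricholic acids in mouse, averaged 13.65 in zinc-treated mutants, 13.24 in untreated mutants and 13.97 in wild type. It fell by 0.74 (adjusted p = 6.51e-05) and was 0.41 higher with zinc (adjusted p = 0.0172). Slc27a2 fell by 0.72 (adjusted p = 6.51e-05), Acox2 rose by 0.49 (adjusted p = 0.000478) and Amacr fell by 0.42 (adjusted p = 0.00104). Cyp7a1, the rate-limiting enzyme of synthesis, differed by 0.76 and did not pass (95% interval -0.25 to 1.77; adjusted p = 0.253).

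Of 17 nuclear receptors and other regulators, 5 rose and 5 fell in Atp7b-/- livers. Nr0b2, which encodes the FXR-induced repressor SHP, averaged 9.58 in zinc-treated mutants, 8.47 in untreated mutants and 9.84 in wild type. It fell by 1.37 (adjusted p = 0.00197) and was 1.11 higher with zinc (adjusted p = 0.0231). Esr1, the estrogen receptor, rose by 1.06 (adjusted p = 0.000372), Cebpb by 1.05 (adjusted p = 0.00285) and Nfe2l2, which encodes NRF2, by 0.70 (adjusted p = 0.00308). Rxra, the partner of FXR, PXR and CAR, fell by 0.59 (adjusted p = 0.00427), Hnf4a fell by 0.25 (adjusted p = 0.0233) and Nr1i2, which encodes PXR, rose by 0.40 (adjusted p = 0.0103). Nr1h4, which encodes FXR, differed by 0.24 (adjusted p = 0.135), and Nr1i3, which encodes CAR, by -0.21 (adjusted p = 0.334). Rxra, Hnf4a, Nr1i2, Nr1h4, Nr1i3 and Cyp7a1 were picked out of their lists after their values were seen.

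Targets of the xenobiotic receptors PXR and CAR and of the oxidative stress factor NRF2 moved both ways. Of 14 PXR and CAR targets, 4 rose and 2 fell in Atp7b-/- livers, among them Gstm3 (1.37; adjusted p = 0.000146), Cyp2c29 (-1.86; adjusted p = 0.00293), Papss2 (0.50; adjusted p = 0.0114) and Cyp2b10 (1.09; adjusted p = 0.0139). Of 14 NRF2 targets, 6 rose and 2 fell, the first 4 by adjusted p being Srxn1 (1.35; adjusted p = 1.68e-06), Ephx1 (1.01; adjusted p = 1.74e-06), Ugdh (1.03; adjusted p = 3.58e-06) and Aox1 (0.80; adjusted p = 2.37e-05). Abcc3 and Abcc4 are known NRF2 targets in mouse liver. Abcc3 fell, while Abcc4 was higher without overlap at a dim level and did not pass. Any part of NRF2 in these values was not tested. Of 11 male-biased liver genes 9 fell, and of 9 female-biased genes 0 passed (2 were higher at an unadjusted p under 0.05).

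**Figure D4:**
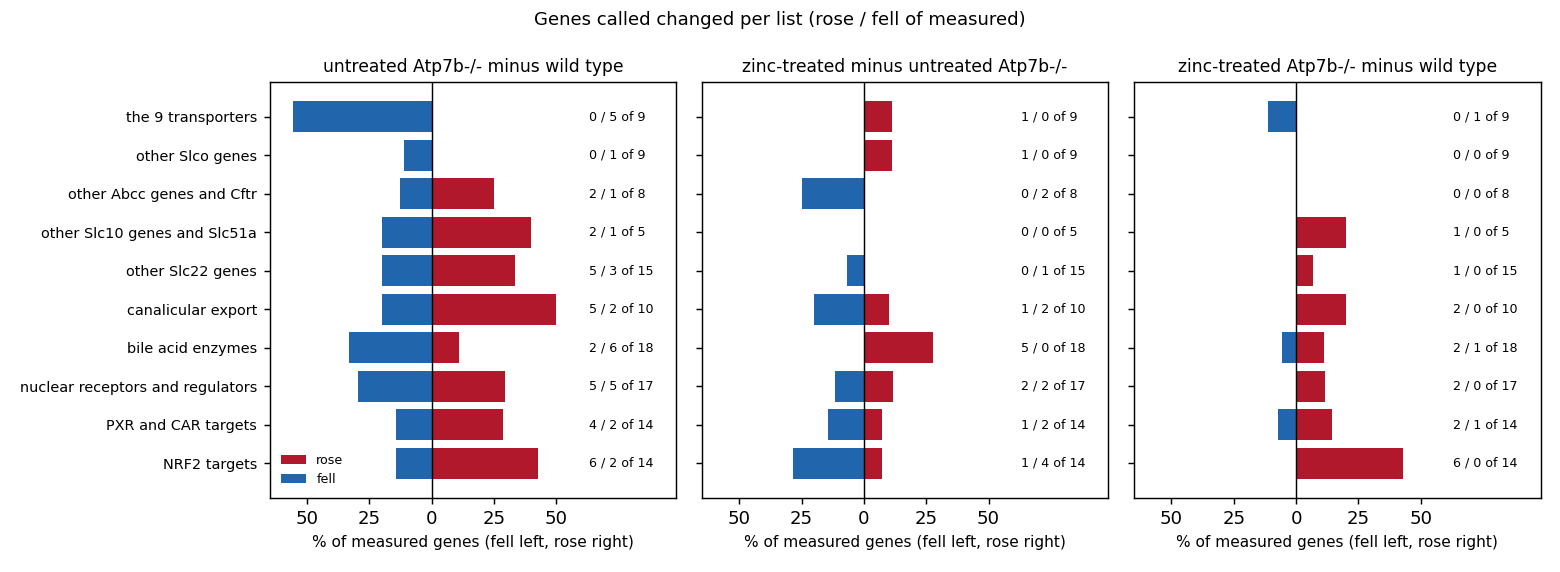
Share of measured genes called higher (red, right) or lower (blue, left) in each list, in percent (horizontal axis), for the 3 comparisons, with the counts of genes that rose and fell beside each bar. Among the 9 transporters 5 fell in the left panel, 1 rose in the middle and 1 fell on the right, while canalicular export had 5 rising and 2 falling genes in the left panel.

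The genes whose pattern was most like that of each transporter were found by Pearson's r over the 12 arrays, among genes brighter than the median and with a proper name. The group differences are part of these values, so they describe likeness alone. Closest to Slc10a1 were Syde2 (r = 0.985, Spearman's rho = 0.965) and the drug-metabolising Cyp2c29 (r = 0.971, rho = 0.944). Cyp2c29 averaged 13.4 in zinc-treated mutants, 11.9 in untreated mutants and 13.8 in wild type. Closest to Slco1b2 were Mug1, a plasma protease inhibitor (r = 0.974), and Ttc3 (r = 0.970), and closest to Slco1a4 were Zeb1 (r = 0.926) and Ppp1r14b (r = 0.920). For Slc22a7 the nearest gene was Mrpl49 (r = 0.908) and for Abcc3 it was Acvr2a (r = 0.912). Abcc4 was closest to Snx12, with r = 0.930 but rho = 0.657. The lowest likeness of a nearest gene was that of Art1 to Slc51b (r = 0.859).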

How the data were processed

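Liver RNA of 12 arrays in 3 groups of 4, given by the samples' labels, was analysed from 1 table of log2 intensities that the authors deposited, with 1 value per probe set and array. The table holds 45101 probe sets with values of 2.22 to 15.2, and array medians of 5.63 to 5.71. The summarisation and normalization of the scans are not stated in the labels. The number of arrays limits the precision.

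Probe sets with 1 gene symbol in the platform annotation (34945) were kept. Those with several symbols (932), none (9160) or a control name (64) were left out. Each of 18193 genes was read from the probe set that was brightest on average. Tests between groups used limma 3.58.1 (R 4.3.3; lmFit on group means over all 12 arrays, then eBayes), with Benjamini-Hochberg adjustment over all genes at 0.05. The script was tested on simulated data. Alternatives were quantile normalization, median centring, the mean of all probe sets, no probe sets shared between transcripts, no dim genes, a trended robust variance, array weights, 2 groups alone, a replicate block, each array left out and the arrays that stood apart left out. Testing each probe set on its own over 34945 probe sets was added after seeing the data. Positions are from RefSeq genes on GRCm38.p6, and promoter windows from RefSeq on the same build.

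The members and lists were chosen with earlier results of these data known. Named genes are all members, up to 4 genes per list with the smallest adjusted p among those called, and the 2 genes most like each member by Pearson's r over 12 arrays (among genes above the median level with a named symbol), of which the closest are given. Atp7b and Mt1 are checks. Slc51a, as the partner of Slc51b, and the neighbours in the Slco cluster are named outside this rule, as are the genes said in the text to be picked out after their values were seen.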

Additional observations from a re-analysis of the deposited data

Results flagged for a closer look

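In 48 groups of 4 arrays (16 probe sets in 3 groups), 3 had an array whose gap to its nearest neighbour was, as a share of the group's range, above Dixon's 95% critical value, where chance gives about 1 in 20. All 3 were untreated Atp7b-/- replicate 1. It was the highest array for Abcc4, with a gap of 0.850 of the range, at 7.49 against 5.98 to 6.20 on the other untreated arrays. It was the lowest for Slco1b2 on its brightest probe set, with a gap of 0.940, at 12.67 against 13.10 to 13.13, and on a second probe set, with a gap of 0.892, at 12.26 against 12.73 to 12.79.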

How the results depend on the processing

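Of 27 member results (9 genes in 3 comparisons), 16 kept their call under every setting in which they were tested, 3 lost it under some and 8 gained it under some. The sign held in all settings for 22, and no called difference changed sign. Calls for Slc10a1, Slco1b2, Slco1a4 and Slc22a7 in untreated Atp7b-/- against wild type held under all. The 3 that lost it were Abcc3 in that comparison, Slc10a1 in zinc-treated against untreated mutants, and Slc22a7 in zinc-treated mutants against wild type. The cause of the changed calls was not tested.

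For Atp7b-/- against wild type, 1 member rose (against 0 as reported) with dim genes left out, with array weights, and without 3 arrays, namely both zinc-treated arrays with pancreatic transcripts and untreated replicate 1. For zinc-treated against untreated Atp7b-/-, 2 members rose (against 1) with quantile normalization, the mean of all probe sets, dim genes left out, and without the pancreatic arrays or those 3 arrays, and 0 with only the groups compared. Without the pancreatic arrays those that rose were Slco1a4 and Abcc3, and Slc10a1 lost its call. With a trended robust variance Slco1b2 rose in place of Slc10a1. With array weights 1 member fell (against 0). Genes called there numbered 1861 with array weights, 614 without the pancreatic arrays and 598 without those 3, against 1190. For zinc-treated Atp7b-/- against wild type, 699 and 881 genes were called without the same arrays, against 1386, and 0 members fell (against 1) without probe sets shared between transcripts, where Slc22a7 has none.

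Leaving out 1 array at a time gave 3292 to 4495 genes in untreated Atp7b-/- against wild type, with 0 to 1 members rising and 4 to 5 falling. It gave 689 to 1158 in zinc-treated against untreated Atp7b-/-, with 0 to 1 rising and 0 to 1 falling, and 932 to 1639 in zinc-treated Atp7b-/- against wild type, with 0 rising and 0 to 2 falling. In zinc-treated against untreated Atp7b-/-, the member that rose was Slco1a4 without zinc-treated replicate 3 and Slc51b without zinc-treated replicate 1. Slc10a1 lost its call in both. Against wild type, Slco1a4 fell in place of Slc22a7 without zinc-treated replicate 4.

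Same-numbered arrays paired weakly at most: 5 of 12 pairs had a correlation of deviations over 0.1 (range -0.13 to 0.24). Of the 12 arrays, 6 correlated best with an array of their own number in another group. Whether the numbers mark pairs is not known. With the replicate block 4449, 1171 and 1353 genes were called in the 3 comparisons in the same order, 5 members fell and 0 rose in the first, 1 rose in the second, and 0 fell in the third, where Slc22a7 had an adjusted p of 0.0640 in limma. For zinc-treated Atp7b-/- and wild type alone, 3 of the 4 pairs were over 0.1 and replicate 1 was at -0.13. Abcc4 and Slc51b were not tested with dim genes left out. Low signal limits what can be seen of both.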
